A study of Mus musculus with 15 samples.

Results

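A set of 10 genes of bile acid synthesis and transport were followed in maternal mouse liver, out of the 21702 protein-coding genes counted. They were taken by name from the gene table and comprise the synthesis enzymes Cyp7a1, Cyp8b1, Cyp27a1 and Cyp7b1, the conjugating enzyme Baat, the uptake carriers Slc10a1 and Slco1b2, the export pump Abcb11 and the nuclear receptors Nr1h4 and Nr0b2. All 10 were detected and all 10 passed the filter on low counts, which kept 12172 genes. RNA was sequenced from whole liver of female wild-type C57BL/6 mice (C57BL/6N in the methods of the study) in 5 groups of 3. AAV8-null mice were non-pregnant (NP) or pregnant at 8 or 16 days post coitum (dpc), and AAV8-p21 mice were all pregnant, at 8 or 16 dpc. Every mouse, the NP controls included, had received an AAV8 vector by tail vein as a young adult, which for the pregnant groups was before mating. The vector carried either no insert or the cDNA of p21, an inhibitor of the cell cycle, behind the TBG promoter, which is active in hepatocytes, so other liver cells were not targeted. There was no non-pregnant AAV8-p21 group, so an effect of the p21 vector outside pregnancy could not be measured. Whole liver mixes hepatocytes with other cells, and fewer cells of a type cannot be told apart from less RNA per cell.

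Bile acids are made from cholesterol in hepatocytes. Cyp7a1 catalyses the rate-limiting step of the classical route, Cyp8b1 directs the product to cholic acid, and Cyp27a1 and Cyp7b1 act in the alternative route, before Baat joins the acids to taurine or glycine. Abcb11 (BSEP) pumps them into bile, and after absorption in the gut they return in portal blood and are taken up again by Slc10a1 (NTCP) and Slco1b2 (OATP1B2). Bile acids activate the receptor FXR, encoded by Nr1h4, which induces Abcb11 and Nr0b2 (SHP), and SHP represses Cyp7a1. Cyp7a1 also follows a strong daily rhythm.

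Members were called lower in late pregnancy. Under AAV8-null, the levels of Slc10a1, Slco1b2 and Cyp7a1 fell from NP to 16 dpc by 2.32-fold, 3.22-fold and 8.53-fold. The calls of Slc10a1 and Slco1b2 held whichever of the 6 libraries was left out, whereas that of Cyp7a1 held in 2 of the 6 fits (adjusted p up to 0.111, log2 fold change −4.27 to −2.55). At 8 dpc edgeR called 0 members against NP, as it did 0% of all genes, so the count says nothing particular to the members. The fall of Slc10a1 was also present under AAV8-p21. At 16 dpc the 3 AAV8-p21 livers held more Cyp7a1 RNA than each of the 3 AAV8-null livers. The main test did not call this difference, and 13.7% of all genes also had no overlap there. A summary value of daily clock genes also did not overlap between these groups, and its part in the Cyp7a1 difference was not tested.

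The promoters of the carriers that fell are shown because both genes were lower at 16 dpc in both virus groups when compared with NP. The windows are the 250 bases before the RefSeq start site on GRCm38.p6, printed 5′ to 3′ on the strand of the gene, with matches to searched motifs in capitals. Slc10a1 has 2 windows in the RefSeq promoter table used here, and the one whose start is the 5′ end of the gene in GENCODE is given. It lies at chr12:80968706-80968955 on the minus strand, and that of Slco1b2 at chr6:141629268-141629517 on the plus strand.
Slc10a1: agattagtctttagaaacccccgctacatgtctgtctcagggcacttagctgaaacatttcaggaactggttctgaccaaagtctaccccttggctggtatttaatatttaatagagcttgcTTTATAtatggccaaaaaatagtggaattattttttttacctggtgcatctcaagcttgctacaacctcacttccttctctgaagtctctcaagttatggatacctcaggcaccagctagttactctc
Slco1b2: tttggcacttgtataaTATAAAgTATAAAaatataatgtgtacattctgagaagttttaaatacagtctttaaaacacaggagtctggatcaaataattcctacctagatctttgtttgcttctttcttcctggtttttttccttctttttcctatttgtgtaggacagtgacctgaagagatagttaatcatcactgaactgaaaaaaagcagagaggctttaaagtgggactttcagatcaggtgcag
The capitals mark TATAAA, once on the opposite strand in Slc10a1 (bases −128 to −123 from the start) and at 2 places in Slco1b2 (−234 to −229 and −227 to −222).

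The search covered both strands of windows from 250 bases before to 50 after each start. Windows of that table were matched for 7 of the 10 members (8 windows), and those of Cyp7a1, Cyp7b1 and Baat were not analysed here. Of all 32851 windows, 13.6% held TATAAA, and 4 of the 8 member windows did, those of Cyp8b1 (bases −31 to −26), Nr0b2 (−28 to −23), Slc10a1 and Slco1b2. The E-box CACGTG, a site of clock factors, was in 7.15% of all windows and in that of Nr0b2 alone among the members. The D-box TTATGCAA or TTACGCAA, read by Dbp and Tef, was in 0.907% of all windows and, among the members, only in the second window of Slc10a1, across its start from −4 to 3. The LRH-1 site CAAGGTCA was in 1.56% of all windows and in 0 of the 8. AGGTCA facing TGACCT with 1 base between (the FXR element IR-1, 0.00913% of all windows) and AGGTCA repeated after 1 base (DR-1, 0.0396%) were also in 0 of the 8. These last 3 motifs share the letters AGGTCA and can overlap. Only exact letters were searched, so sites with other letters or outside the windows would be missed. IR-1 was in only 3 of the 32851 windows, so its 0 of the 8 does not show that the members lack such sites.

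Libraries held 12280709 to 17615185 counts on genes. The albumin gene Alb took 20.5% to 27.8% of the counts at 16 dpc and 7.90% to 12.9% in the other groups, and the TMM factors that adjust for such a shift were 0.682 to 0.839 at 16 dpc and 1.10 to 1.25 elsewhere. Levels are given as CPM, the counts of a gene scaled to the TMM-normalized size of its library. Cdkn1a, the mouse gene of p21, was at 3.29 to 33.7 CPM in NP, 16.5 to 33.4 and 59.8 to 127 CPM in AAV8-null at 8 and 16 dpc, and 347 to 648 and 815 to 1664 CPM in AAV8-p21 at 8 and 16 dpc. Reads from the vector and from the mouse gene cannot be told apart. Its AAV8-p21 libraries did not overlap with AAV8-null at either stage, but the edgeR quasi-likelihood test gave adjusted p = 0.0873 at 8 dpc and 0.0619 at 16 dpc. From NP to 16 dpc under AAV8-null, the marker genes called were 2 higher and 1 lower of 5 for hepatocytes, 2 lower of 5 for periportal and 1 lower of 5 for pericentral hepatocytes, 2 higher of 3 for red cells and 1 lower of 5 for stellate cells, with 0 for cholangiocytes, Kupffer and endothelial cells (2, 0 and 0 at an unadjusted p under 0.05 in edgeR). The part of these in the results was not tested. Hepatocyte markers dominated all libraries. Of the 6 cholangiocyte markers, Krt19, Krt7, Epcam and Cftr stayed at or below 1.45 CPM and Sox9 at or below 2.14 CPM, while Spp1 ran from 7.25 to 49.7 CPM. Some livers stood apart within their group. By the chi-square of the counts per gene between pairs of livers, the first and second AAV8-p21 livers of 16 dpc were at 19.8 from each other, and at 158 and 132 from the third. The first NP liver was at 96.0 and 92.5 from the others, which were at 16.8 from each other. The third AAV8-null liver of 8 dpc was at 105 and 138 from the others, at 27.8, and the third AAV8-p21 liver of 8 dpc at 67.8 and 51.7, against 31.8. From NP to 16 dpc under AAV8-null, the same 3 members were called without the first NP liver.

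Differences were tested with the edgeR quasi-likelihood test on all 15 libraries, with Benjamini-Hochberg adjustment over the 12172 genes. A gene is said to rise, fall or be called where its adjusted p was under 0.05 and its change over 2-fold. Between NP and 16 dpc AAV8-null livers, 3 of the 10 members were called, all lower, where 4.91% of all genes were called and 2.06% were called lower. The groups did not overlap for 6 members, against 24.6% of all genes. The median log2 fold change was −0.83 over the members and −0.03 over all genes. The members were chosen with earlier results of these data known, so their counts and medians beside those of all genes are not free of that choice.

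**Figure D1:**
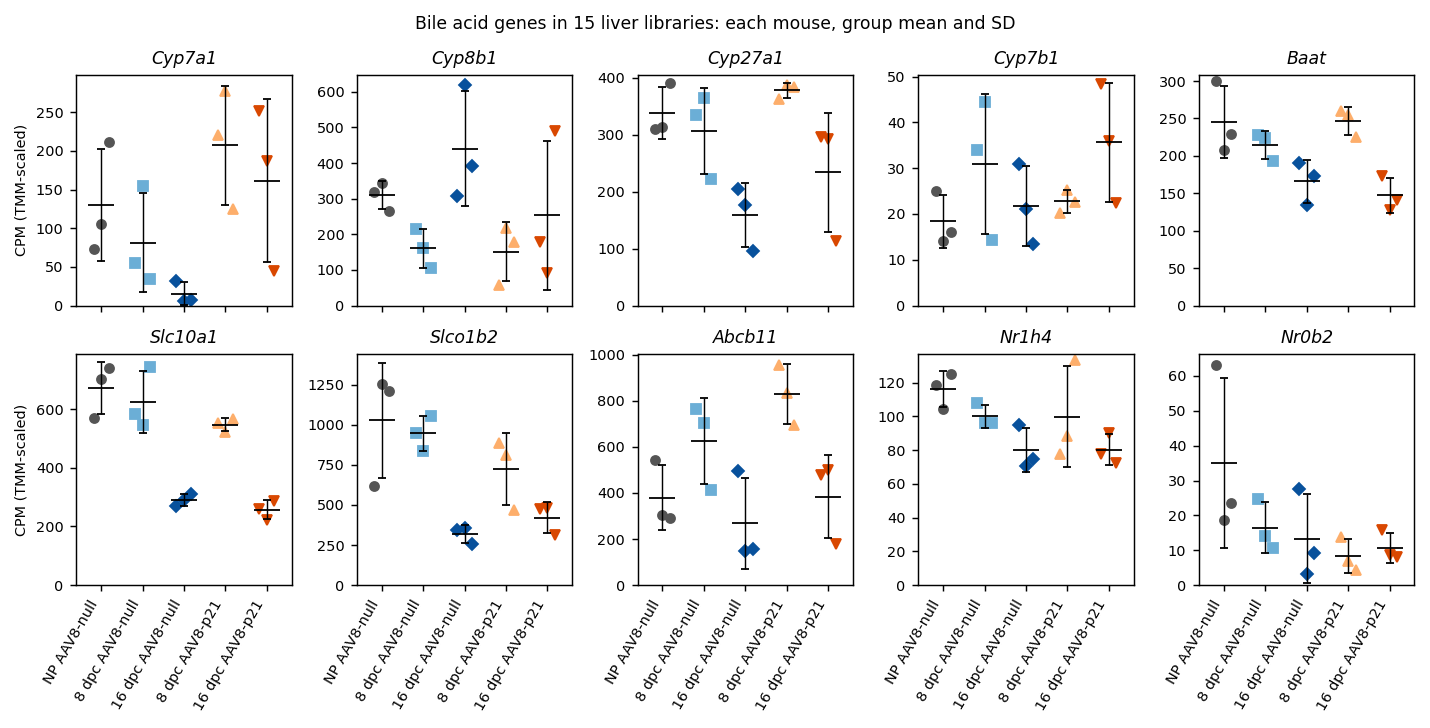
CPM of each member (vertical axes, linear from 0) in the 15 livers by group (horizontal axis), with points for mice and a bar and whiskers for the group mean and SD. The 16 dpc points of Slc10a1 sit between 224 and 309.5 CPM, below all points of the other groups (523 CPM and above), and the 3 AAV8-null points of Cyp7a1 at 16 dpc are the lowest of that gene.

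Slc10a1, the sodium-dependent carrier that brings conjugated bile acids back into hepatocytes, is listed as ENSMUSG00000021135 and lies on chromosome 12 from 80953183 to 80968705 on the minus strand. It was at 571, 705 and 741 CPM in the NP livers, and at 585, 547 and 746 CPM in AAV8-null livers at 8 dpc. The 16 dpc livers had 269.7, 289 and 309.5 CPM under AAV8-null and 260.1, 224 and 287 CPM under AAV8-p21. The AAV8-p21 livers at 8 dpc had 554, 523 and 566 CPM. All 6 livers of 16 dpc were thus below all 9 others, and the 2 viruses overlapped at each stage. The log2 fold change from NP to 16 dpc under AAV8-null was −1.22 (SE 0.18, adjusted p = 0.00121), and the call held whichever of the 6 libraries was left out. From 8 to 16 dpc it fell by 1.11 on the log2 scale under AAV8-null (SE 0.18, adjusted p = 0.0027) and by 1.09 under AAV8-p21 (SE 0.18, adjusted p = 0.00419). These changes lie close to the 2-fold limit, and they were −0.97 without the third AAV8-null liver of 8 dpc and −0.9986 without the second AAV8-p21 liver of 16 dpc, with adjusted p = 0.00714 and 0.0322. The order of the group means was NP (672 CPM), 8 dpc AAV8-null (626), 8 dpc AAV8-p21 (548), 16 dpc AAV8-null (290) and 16 dpc AAV8-p21 (257), and of the neighbours in it only the third and the fourth did not overlap.

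Slco1b2, a sodium-independent carrier of bile acids and of many drugs at the same membrane, is listed as ENSMUSG00000030236 on chromosome 6 from 141629518 to 141686646, plus strand. Its NP livers had 617, 1257 and 1212 CPM, and its AAV8-null livers had 950.0, 838 and 1058 CPM at 8 dpc and 346, 357 and 254 CPM at 16 dpc. The 16 dpc values were all below the lowest NP value. The log2 fold change was −1.69 against NP (SE 0.31, adjusted p = 0.00492) and −1.57 against 8 dpc (SE 0.31, adjusted p = 0.00876), and both calls held with any 1 of the libraries compared left out. Under AAV8-p21 the 8 dpc livers had 886, 814 and 466 CPM and the 16 dpc livers 475, 479.7 and 311 CPM, and these 2 groups overlapped (log2 fold change −0.78, SE 0.30, adjusted p = 0.201). Against NP, the AAV8-p21 livers of 16 dpc were lower by a log2 fold change of −1.29 (SE 0.31, adjusted p = 0.0297). That call was lost without the second NP liver (adjusted p = 0.129), the third NP liver (0.116) or any 1 of the AAV8-p21 livers of 16 dpc (0.0693, 0.0744 and 0.105). The group means ran from NP (1029 CPM) through 8 dpc AAV8-null (948), 8 dpc AAV8-p21 (722) and 16 dpc AAV8-p21 (422) to 16 dpc AAV8-null (319), and every pair of neighbours overlapped.

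Cyp7a1, the first enzyme of the classical route, is listed as ENSMUSG00000028240 on chromosome 4 from 6265612 to 6275633, minus strand. The NP livers had 72.5, 105 and 211 CPM, and the AAV8-null livers of 8 dpc had 54.9, 154 and 34.3 CPM. At 16 dpc the AAV8-null livers had 32.2, 5.75 and 7.65 CPM, from 361, 69 and 86 counts, so each lay below every liver of the other 4 groups. From NP it fell by 3.09 on the log2 scale (SE 0.78, adjusted p = 0.0295). It stayed between −4.27 and −2.55 when single libraries were left out, but the call was lost without the second or the third NP liver (adjusted p = 0.0584 and 0.105) or without the second or the third AAV8-null liver of 16 dpc (0.111 each). From 8 to 16 dpc the log2 fold change was −2.42 (SE 0.76, adjusted p = 0.0706), which is not a call, with no overlap by a gap of 34.3 to 32.2 CPM. The same contrast was called by DESeq2 on all 15 libraries (adjusted p = 0.0377) but not on the 6 libraries compared (0.102). In edgeR it was called without the third AAV8-null liver of 8 dpc (0.0377) or the first of 16 dpc (0.0235), and without the second liver of 8 dpc it was −1.56 (0.327).

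The AAV8-p21 livers had 221, 277 and 124 CPM of Cyp7a1 at 8 dpc and 252, 187 and 45.2 CPM at 16 dpc. At 16 dpc all 3 were above all 3 AAV8-null livers, the only member without overlap between the viruses at that stage, where 13.7% of all genes had none. The log2 fold change was 3.41 (SE 0.79, 95% interval 1.71 to 5.11), a 10.6-fold difference of the fitted means, with unadjusted p = 0.00068 and adjusted p = 0.122 in edgeR. DESeq2 called it on all 15 libraries (adjusted p = 0.00769) and on the 6 libraries compared (0.0477). Leaving out single libraries in edgeR gave 2.94 to 4.59, with adjusted p from 0.0525 to 0.515. Without the third AAV8-p21 liver, which stood apart in its group and had the 45.2 CPM, it was 3.85 (adjusted p = 0.0525). Of the 8 marker sums, 3 also did not overlap between these groups. The cholangiocyte sum was 8.41 to 17.5 CPM under AAV8-null and 19.7 to 43.1 CPM under AAV8-p21, most of it Spp1, with 0 of 5 markers called in edgeR and 2, Spp1 and Epcam, at an unadjusted p under 0.05. The pericentral sum was 4970.2 to 6898 CPM under AAV8-null and 7234 to 8628 CPM under AAV8-p21, and the hepatocyte sum 308265 to 431989 CPM and 270217 to 303830 CPM. The part of these in the Cyp7a1 difference was not tested. At 8 dpc the difference was 1.35 (SE 0.73, 95% interval −0.20 to 2.91, adjusted p = 1) and the groups overlapped. The change of the virus difference from 8 to 16 dpc was 2.06 (SE 1.03, unadjusted p = 0.0649, adjusted p = 1). Against NP, the AAV8-p21 livers of 16 dpc overlapped, with a log2 fold change of 0.32 and a 95% interval of −1.21 to 1.85.

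Genes of the daily clock differed between the livers, and the hour of dissection is not given in the sources used here. A clock difference was computed for each liver, as the average log2 CPM of 3 genes of the activating arm (Arntl, Clock and Npas2) less that of 6 genes with the opposite phase (Ciart, Dbp, Nr1d1, Nr1d2, Per3 and Tef). It was −1.24 to 1.82 in the AAV8-null livers of 16 dpc, against −4.45 to −2.58 in the AAV8-p21 livers of 16 dpc, so these groups did not overlap. Of the 9 clock genes, 6 had no overlap between these groups, against 13.7% of all genes. At an unadjusted p under 0.05 in edgeR there were 5 of the 9, against 1189 of the 12172 genes. In edgeR, 0 of the 9 were called, where only 0.0739% of all genes were, and DESeq2 also called 0 of the 9. The NP livers were at 0.39, −3.97 and −4.05, the AAV8-null livers of 8 dpc at 1.16, 1.28 and −1.04, and the AAV8-p21 livers of 8 dpc at 2.66, 2.27 and −2.88. Cyp7a1 was above 200 CPM at both ends of the scale, in the first 2 AAV8-p21 livers of 8 dpc at one end and in the third NP liver and the first AAV8-p21 liver of 16 dpc at the other. In all 7 livers between −1.24 and 1.82, among them the 3 AAV8-null livers of 16 dpc, Cyp7a1 was at 154 CPM or less. In the 8 livers outside that range it was at 45.2 to 277 CPM. These limits are the range of the AAV8-null livers of 16 dpc, the group lowest in Cyp7a1, which therefore lies inside by construction. The split was made after the values were seen and draws no conclusion. The part of the hour in the Cyp7a1 differences was not tested.

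**Figure D2:**
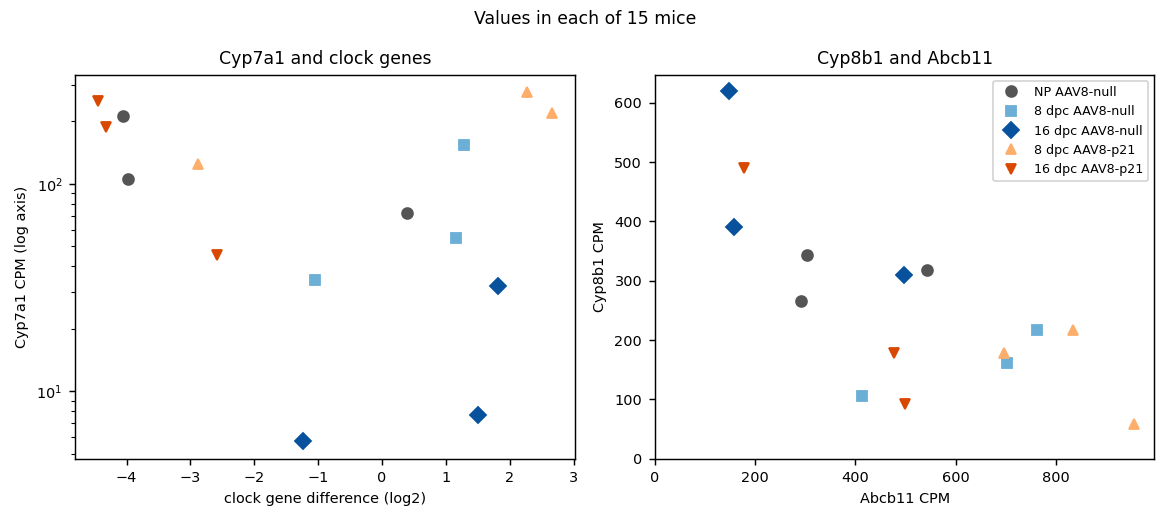
Each point is 1 of the 15 livers, coloured by group. Left, Cyp7a1 CPM (log axis) against the clock gene difference (log2), where the AAV8-null livers of 16 dpc lie between −1.24 and 1.82 and the AAV8-p21 livers of 16 dpc between −4.45 and −2.58. Right, Cyp8b1 CPM against Abcb11 CPM, where the 3 livers under 200 CPM of Abcb11 have 391 CPM or more of Cyp8b1.

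Cyp8b1 is needed for cholic acid and sets how much of it is in the pool (ENSMUSG00000050445, chromosome 9, 121914356 to 121916305, minus strand). It was at 319, 344 and 267 CPM in NP, and under AAV8-null at 216, 161 and 106 CPM in livers of 8 dpc and at 309, 619.9 and 391 CPM in livers of 16 dpc. Of the 10 members it alone had a positive log2 fold change between these stages, with all 16 dpc values above all 8 dpc values. That change was 1.45 (SE 0.55, adjusted p = 0.127), which edgeR did not call. DESeq2 gave 1.45 in both fits, with adjusted p = 0.00153 on the 6 libraries compared, a call, and 0.0529 on all 15 libraries, which is not. The AAV8-p21 livers had 57.9, 217 and 178 CPM at 8 dpc and 178, 91.7 and 490.2 CPM at 16 dpc, with wide spread in both. Neither virus comparison passed, with a log2 fold change of −0.09 (95% interval −1.24 to 1.06) at 8 dpc and −0.80 (−1.95 to 0.36) at 16 dpc.

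Cyp27a1, the mitochondrial sterol 27-hydroxylase (ENSMUSG00000026170, chromosome 1, 74713574 to 74737892, plus strand), was at 309.8, 314 and 391 CPM in NP and at 204, 176 and 96.0 CPM in AAV8-null livers of 16 dpc. These groups did not overlap, but the log2 fold change of −1.09 (SE 0.34) had adjusted p = 0.075 in edgeR. DESeq2 called it on all 15 libraries (adjusted p = 0.0257) and on the 6 libraries compared (0.0148). In edgeR it was called on the 12 numbered libraries alone (0.0339) and with a replicate block (0.0394). With single libraries left out, 0 of 6 edgeR fits called it (0.0672 to 0.224). The AAV8-null livers of 8 dpc had 334, 364 and 222 CPM, and the AAV8-p21 livers had 363, 387 and 383 CPM at 8 dpc and 296, 293 and 113 CPM at 16 dpc. The virus difference at 16 dpc was 0.56 on the log2 scale (95% interval −0.16 to 1.29).

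Cyp7b1, the oxysterol 7-hydroxylase of the alternative route (ENSMUSG00000039519, chromosome 3, 18071950 to 18243338, minus strand), ranged from 13.5 to 48.5 CPM over all livers. Its NP livers had 25.003, 14.1 and 16.013 CPM, and its AAV8-null livers had 33.9, 44.5 and 14.4 CPM at 8 dpc and 30.8, 20.996 and 13.5 CPM at 16 dpc. The AAV8-p21 livers had 20.3, 25.3 and 22.6 CPM at 8 dpc and 48.5, 36.0 and 22.4 CPM at 16 dpc. No comparison called it, and its groups overlapped in all 7 comparisons between groups.

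Baat, which adds taurine or glycine to bile acids (ENSMUSG00000039653, chromosome 4, 49489422 to 49506557, minus strand), was at 299.9, 208 and 229 CPM in NP. The AAV8-null livers had 228, 223 and 193 CPM at 8 dpc and 191, 135 and 173 CPM at 16 dpc, the latter all below NP (log2 fold change −0.56, SE 0.20, adjusted p = 0.108). The AAV8-p21 livers had 260.4, 255 and 226 CPM at 8 dpc and 173, 127 and 141 CPM at 16 dpc, again with no overlap. Between these 2 groups it was −0.75 on the log2 scale (SE 0.20, adjusted p = 0.0522) and against NP −0.74 (SE 0.20, adjusted p = 0.051), both just past the limit of 0.05 and under 2-fold. Between the viruses at 16 dpc it was −0.18 (95% interval −0.59 to 0.24).

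Abcb11, the pump that secretes bile acids into the canaliculus (ENSMUSG00000027048, chromosome 2, 69238282 to 69342616, minus strand), was at 543, 304 and 292 CPM in NP. The AAV8-null livers had 763, 703 and 414 CPM at 8 dpc and 497, 149 and 159 CPM at 16 dpc, and the AAV8-p21 livers had 956, 835 and 696 CPM at 8 dpc and 477, 499 and 178 CPM at 16 dpc. The 2 virus groups overlapped at each stage. The log2 fold change from 8 to 16 dpc was −1.22 under AAV8-null (SE 0.48, adjusted p = 0.137) and −1.11 under AAV8-p21 (SE 0.47, adjusted p = 0.253), neither a call in edgeR. The first contrast was called without the first AAV8-null liver of 16 dpc (−2.03, adjusted p = 0.019) and with a replicate block on the 12 numbered libraries (−1.38, adjusted p = 0.0295). The second was called by DESeq2 on the 6 libraries compared (−1.10, adjusted p = 0.0331) but not on all 15 libraries (adjusted p = 0.165). Within each 16 dpc group, though not in the other groups, Cyp8b1 ran in the opposite order to Abcb11. The livers with 149, 159 and 178 CPM of Abcb11 had 619.9, 391 and 490.2 CPM of Cyp8b1, and those with 497, 477 and 499 CPM had 309, 178 and 91.7 CPM. In NP and in AAV8-null at 8 dpc, the liver lowest in Abcb11 (292 and 414 CPM) was also the lowest in Cyp8b1 (267 and 106 CPM). This order was noticed in the values and was not tested.

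Nr1h4 (FXR, ENSMUSG00000047638, chromosome 10, 89454234 to 89533585, minus strand) was at 119, 104 and 125 CPM in NP, and at 108, 96.3 and 96.3 CPM and at 95.02, 70.6 and 74.6 CPM in AAV8-null livers of 8 and 16 dpc. The AAV8-p21 livers had 77.5, 88.6 and 134 CPM at 8 dpc and 77.7, 90.4 and 72.5 CPM at 16 dpc. The log2 fold change from NP to 16 dpc under AAV8-null was −0.54 (SE 0.21, adjusted p = 0.147), without overlap. At 16 dpc the virus difference had a 95% interval of −0.44 to 0.44 on the log2 scale.

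Nr0b2 (SHP, ENSMUSG00000037583, chromosome 4, 133553376 to 133556536, plus strand) was at 63.2, 18.6 and 23.6 CPM in NP. Under AAV8-null the 8 dpc livers had 24.7, 14.2 and 10.6 CPM and the 16 dpc livers 27.6, 3.08 and 9.255 CPM, where the lowest value rests on 37 counts. The AAV8-p21 livers had 13.9, 7.02 and 4.34 CPM at 8 dpc and 15.7, 8.58 and 7.94 CPM at 16 dpc. The AAV8-p21 livers of 16 dpc did not overlap with NP (log2 fold change −1.71, SE 0.67, adjusted p = 0.204), and DESeq2 called this difference on the 6 libraries compared (adjusted p = 0.00991) but not on all 15 libraries (0.0938). Without the first NP liver, the one at 63.2 CPM, it was −0.98 (adjusted p = 0.471). Between 16 dpc AAV8-null and NP the log2 fold change was −1.40 (SE 0.66, adjusted p = 0.243), and single libraries left out moved it from −2.51 without the first AAV8-null liver (adjusted p = 0.0474) to −0.66 without the first NP liver (0.616). With a replicate block on the 12 numbered libraries, edgeR called this difference (−1.54, adjusted p = 0.0454).

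**Figure D3:**
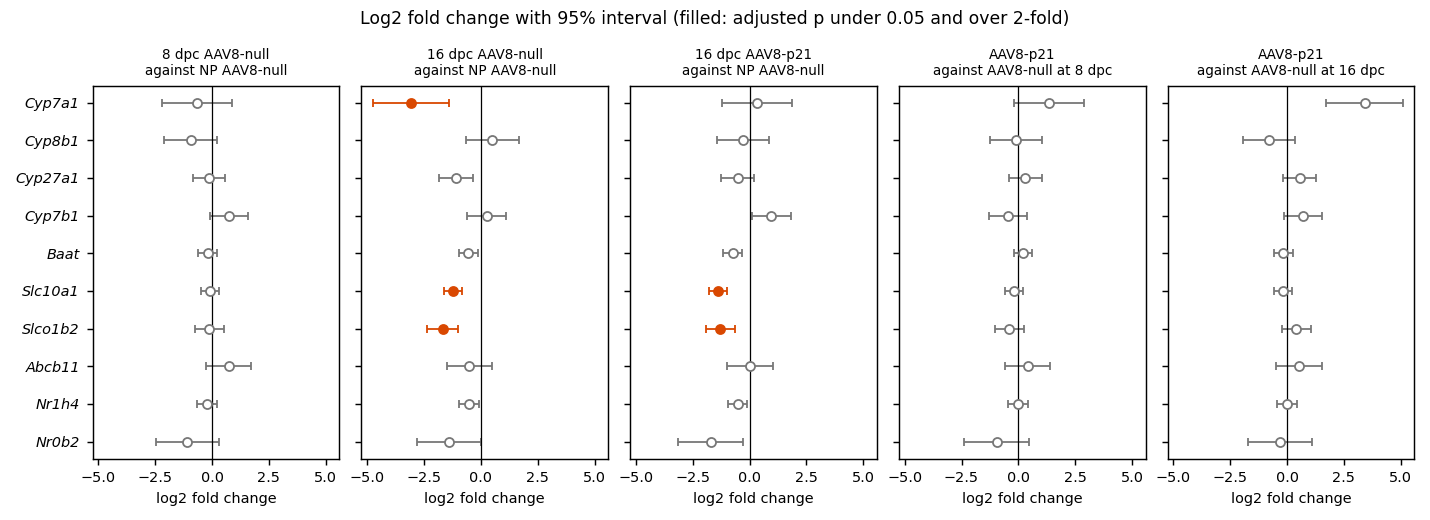
Log2 fold change (horizontal axis) of each member with its 95% interval in 5 comparisons, from the edgeR fit. Filled points passed both thresholds, which are Cyp7a1, Slc10a1 and Slco1b2 at 16 dpc under AAV8-null against NP, and Slc10a1 and Slco1b2 at 16 dpc under AAV8-p21 against NP.

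Levels of different genes were compared only as CPM per kilobase of exon. In NP livers Slc10a1 was highest (306 ± 40.8, SD, n = 3), followed by Slco1b2 (209 ± 72.5), Cyp8b1 (159 ± 20.3) and Cyp27a1 (156 ± 21.02). Baat (126 ± 24.9), Abcb11 (73.8 ± 27.5) and Nr1h4 (50.4 ± 4.65) came next. Cyp7a1 (31.0 ± 17.4), Nr0b2 (31.0 ± 21.6) and Cyp7b1 (8.48 ± 2.69) were lowest. In AAV8-null livers of 16 dpc, Cyp8b1 was highest (226 ± 82.6), Slc10a1 was at 132 ± 9.05 and Cyp7a1 was lowest (3.64 ± 3.53).

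In mid pregnancy under AAV8-null, edgeR called 0 of the 10 members and 0% of all genes against NP. At an unadjusted p under 0.05 there were 0 members and 803 genes, and DESeq2 on all 15 libraries called 0 members and 61 genes. The groups did not overlap for 1 member, Cyp8b1 (log2 fold change −0.94, SE 0.54, adjusted p = 0.903), against 10.2% of all genes. The members had a median log2 fold change of −0.17.

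From 8 to 16 dpc under AAV8-null, Slc10a1 and Slco1b2 were called of the 10, both lower, against 5.41% of all genes called and 2.88% called lower. For 7 members the groups did not overlap, against 25.4% of all genes, and the members' median was −0.73. Without the first AAV8-null liver of 16 dpc, 4 members were called, Cyp7a1 and Abcb11 in addition.

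From 8 to 16 dpc under AAV8-p21, only Slc10a1 was called, against 2.74% of all genes called and 1.01% called lower, and 0 members were called without the second AAV8-p21 liver of 16 dpc. The groups did not overlap for 4 members, against 22.9% of all genes, and the median was −0.53.

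Between 16 dpc AAV8-p21 and NP, where virus and stage both differ, Slc10a1 (log2 fold change −1.39, SE 0.18, adjusted p = 0.000577) and Slco1b2 were called. With single libraries left out, the call of Slc10a1 held in 6 of 6 edgeR fits and that of Slco1b2 in 1 of 6 (adjusted p up to 0.129). The share of all genes called was 3.07%, and 0.945% were called lower. For 6 members the groups did not overlap, against 20.2% of all genes, and the median was again −0.53. The comparisons with NP share the same 3 NP livers.

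The comparison of the viruses asks what changes in the pregnant liver when a cell cycle inhibitor is expressed in hepatocytes. Between the viruses at 16 dpc edgeR called 0 of the 10 members and 0.0739% of all genes, with 1 member, Cyp7a1, and 1189 of the 12172 genes at an unadjusted p under 0.05, and DESeq2 called that member. The share of members at that unadjusted limit is close to that of all genes. At 8 dpc edgeR called 0 members and 0.0246% of all genes. At an unadjusted p under 0.05 there were 0 members and 631 genes, DESeq2 called 0 members, and 0 members had groups without overlap, against 10% of all genes. For the interaction of virus and stage edgeR called 0 members and 0% of all genes, with 0 members and 376 genes at an unadjusted p under 0.05, and DESeq2 called 0 members, with 0 genes on all 15 libraries and 14 genes on the 4 groups compared. The 95% interval of the virus difference at 16 dpc stayed within 2-fold in both directions for Baat (−0.59 to 0.24), Nr1h4 (−0.44 to 0.44) and Slc10a1 (−0.56 to 0.21), and it reached beyond 2-fold for the other 7 members.

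Of 43 further genes of the pathway, 38 could be tested, and Ch25h, Slc51a, Fgf15, Gpbar1 and Vdr were too low. From NP to 16 dpc under AAV8-null, 0 rose and 2 fell of the 38, both transporters, a share near the 4.91% called among all genes. Abcc3 (MRP3), which moves conjugates from hepatocytes back to blood, went from 223, 348 and 354 CPM in NP to 14.7, 20.6 and 32.4 CPM at 16 dpc, with no overlap. Its log2 fold change was −3.77 (SE 0.47, adjusted p = 0.000364). Slco1a4 (OATP1A4), another uptake carrier, went from 84.3, 236 and 335 CPM to 47.2, 55.3 and 72.1 CPM (log2 fold change −1.91, SE 0.50, adjusted p = 0.0331). DESeq2 on all 15 libraries called the same 2 and, in addition, Cyp39a1 and Nr1i3, both lower. At less than 2-fold, 2 regulators had an adjusted p under 0.05, Mafg (log2 fold change −0.99, adjusted p = 0.0082), which represses bile acid synthesis genes, and Fgfr4 (−0.93, adjusted p = 0.0126), the receptor for the gut signal Fgf15.

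In each of the other 3 comparisons of 16 dpc livers with 8 dpc or NP, 2 of the 38 were called, both lower, where 5.41% (from 8 dpc, AAV8-null), 2.74% (from 8 dpc, AAV8-p21) and 3.07% (AAV8-p21 against NP) of all genes were called. From 8 to 16 dpc, Abcc3 fell under AAV8-null (log2 fold change −3.17, adjusted p = 0.00107) and under AAV8-p21 (−1.96, adjusted p = 0.0234). Fgfr4 fell under AAV8-null (−1.22, adjusted p = 0.0027), from 29.96 to 41.8 CPM at 8 dpc to 14.4 to 16.045 CPM at 16 dpc. Hsd3b7, which follows Cyp7a1 in the route, fell under AAV8-p21 (−1.05, adjusted p = 0.04996, barely under the limit). Against NP, 16 dpc AAV8-p21 livers had less Abcc3 (−3.02, adjusted p = 0.00146) and less Cyp39a1, an oxysterol hydroxylase (−2.46, adjusted p = 0.0206). Between the viruses, edgeR called 0 of the 38 at 16 dpc (1 at an unadjusted p under 0.05, Hnf4a) and 0 at 8 dpc (0 at an unadjusted p under 0.05), and DESeq2 called 0 at both stages. Of the synthesis and conjugation list, 14 of 15 genes were tested and 0 were called from NP to 16 dpc under AAV8-null, with a median log2 fold change of 0.02. The transport list had a median of −0.23 (12 of 13 tested) and the regulators −0.23 (12 of 15).

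**Figure D4:**
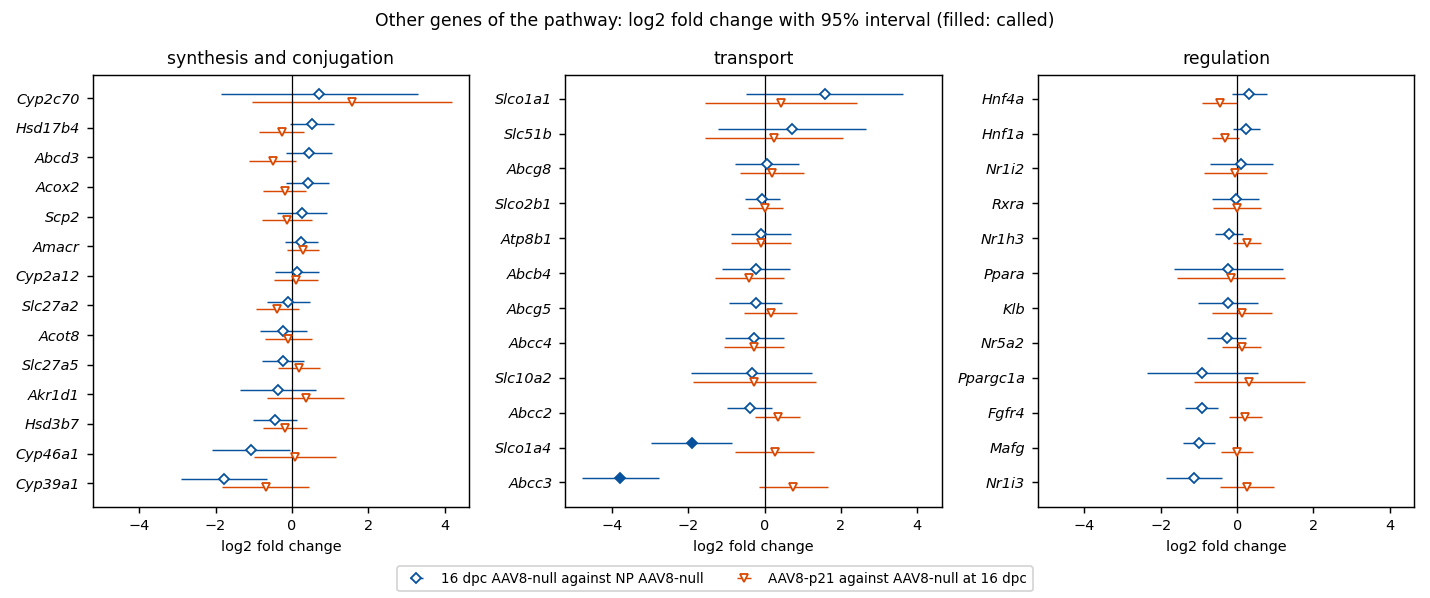
Log2 fold change with 95% interval (horizontal axes) of the 38 other pathway genes tested, for 16 dpc AAV8-null against NP (diamonds) and for AAV8-p21 against AAV8-null at 16 dpc (triangles). Filled symbols, Abcc3 and Slco1a4 in the first comparison, passed both thresholds.

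For the called members, the genes most alike over the 15 libraries were found by the root mean square difference of centred log2 CPM. For Slc10a1, whose own SD was 0.62, they were Paics, Rab3d and Hspb6, at 0.231, 0.245 and 0.259. For Slco1b2 (SD 0.76) they were Lzts3, Gpd1l and Cyp2b9, at 0.295, 0.303 and 0.309. For Cyp7a1 (SD 1.72) the nearest, Dclk3, Zfp970 and Car5a, were at 0.891, 0.941 and 0.958. The measure grows with the spread of the gene itself, so its size is not comparable between the 3 members.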

How the data were processed

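Livers of 15 mice in 5 groups of 3 were analysed. The authors used cutadapt 1.14 for trimming and HISAT2 2.1.0 for alignment to mm10, counted uniquely mapped reads per gene with HTSeq 0.12.4 and deposited these raw counts for 21702 genes. Genes with close copies lose reads at this step, and whether counting used the strand is not given in the sources used here. Column names matched the labels, except that the numbers of the 16 dpc AAV8-p21 libraries did not, so they carry no number and are named by table order alone. The main fit did not pair samples by number. Same-numbered livers of no pair of groups had all correlations over 0.1 (log2 CPM, centred by group), which cannot exclude shared experiments. Between NP and 16 dpc AAV8-null, the mean correlation was 0.2465 for same numbers and −0.1256 for other numbers.

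Counts were tested with edgeR 4.0.16 in R 4.3.3 (TMM, filterByExpr with a minimum count of 10, quasi-likelihood test, Benjamini-Hochberg), with a fold threshold of 2. DESeq2 1.42.0 with the Wald test, the method of the study, was an alternative. The SE is the log2 fold change divided by the root of F. With 3 against 3 mice an exact permutation test cannot go below 0.1. Total counts were 12280709 to 17615185, and the common biological coefficient of variation was 0.277. The members and gene lists were chosen with earlier results of these data known. Other pathway genes were named where called, with at most 4 more per list. Scripts were tested on simulated data. Gene positions are from GENCODE M21 on GRCm38, promoters from RefSeq, and figures from matplotlib 3.10.9.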

Additional observations from a re-analysis of the deposited data

Results flagged for a closer look

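For Cyp7b1, the oxysterol 7-hydroxylase, the fitted difference between AAV8-p21 and AAV8-null livers had opposite signs at the 2 stages, passed the test at neither, and the groups overlapped at both. Its log2 fold change was −0.44 (SE 0.39, adjusted p = 1 in edgeR) at 8 dpc, where all 3 AAV8-p21 livers were below the AAV8-null mean of 30.9 CPM, and 0.71 (SE 0.40, adjusted p = 0.585 in edgeR) at 16 dpc, where all 3 were above the AAV8-null mean of 21.8 CPM. The change from 8 to 16 dpc was 1.15 (SE 0.56, 95% interval −0.04 to 2.34, unadjusted p = 0.0565), and after adjustment in the edgeR quasi-likelihood test it did not pass (adjusted p = 1).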

How the results depend on the processing

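With 3 mice a group, calls near the limits moved with the tool. DESeq2 on all 15 libraries and on the compared groups alone called 61 and 70 genes (main 0) at 8 dpc against NP under AAV8-null, 99 and 122 (main 9) between the viruses at 16 dpc, 27 and 81 (main 3) between them at 8 dpc, 556 and 684 (main 334) from 8 to 16 dpc under AAV8-p21, and 563 and 574 (main 374) for 16 dpc AAV8-p21 against NP. On the compared groups it called 14 genes (main 0) for the interaction. Of the members, both DESeq2 fits called 1 (main 0) between the viruses at 16 dpc, and the fit on the compared groups called 2 (main 1) from 8 to 16 dpc under AAV8-p21. Without the filter on low counts, 21 genes were called between the viruses at 16 dpc, and Nr1h4 there was at −0.001 in place of 0.0025. The cause was not tested. The replicate block on the 12 numbered libraries gave 5 members called from NP to 16 dpc under AAV8-null (Cyp27a1 and Nr0b2 in addition) and 549 genes in all, and those 12 libraries without the block gave 4 members and 584 genes (main 3 and 598). Same-numbered livers of no 2 groups had all correlations over 0.1. DESeq2's size factors moved no median over all genes by more than 0.1.

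Leaving out single libraries gave 0 to 91 genes at 8 dpc against NP, 338 to 604 at 16 dpc against NP, 248 to 1039 from 8 to 16 dpc under AAV8-null, 154 to 393 under AAV8-p21, 192 to 403 for 16 dpc AAV8-p21 against NP, and 2 to 38 and 3 to 35 between the viruses at 8 and 16 dpc. Members called ranged from 2 to 4 for 16 dpc AAV8-null against NP (main 3), 2 to 4 from 8 to 16 dpc under AAV8-null, 0 to 1 under AAV8-p21 and 1 to 2 for 16 dpc AAV8-p21 against NP. Directions of members that were not called turned in these ranges (log2). At 8 dpc against NP, Slco1b2 ran from −0.38 to 0.0546 and Cyp27a1 from −0.28 to 0.0458. At 16 dpc against NP, Cyp7b1 ran from −0.0869 to 0.54. For 16 dpc AAV8-p21 against NP, Abcb11 ran from −0.21 to 0.37, Cyp7a1 from −0.16 to 0.86 and Cyp8b1 from −1.20 to 0.11. From 8 to 16 dpc, Nr0b2 ran from −1.42 to 0.16 under AAV8-null and from −0.0348 to 0.91 under AAV8-p21, where Cyp7a1 ran from −0.84 to 0.0814 and Cyp8b1 from −0.17 to 1.15. Between the viruses, Cyp8b1 ran from −0.45 to 0.30 and Nr1h4 from −0.27 to 0.15 at 8 dpc, and Nr0b2 from −0.78 to 0.80 and Nr1h4 from −0.0904 to 0.14 at 16 dpc. For the interaction, Abcb11 ran from −0.17 to 0.92, Nr1h4 from −0.14 to 0.27 and Slc10a1 from −0.12 to 0.12.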
